A study of Mus musculus with 8 samples.

Results

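The 41 genes described here are the core of interferon signalling and response, measured here in the KPCY mouse pancreatic cancer line: 7 receptor subunits and Janus kinases, 5 transcription factors and 29 genes that interferons induce. They were chosen by symbol, with earlier results of these data known, and all 41 had a row among the 24421 in the table of read counts. Of these, 20 passed the filter on low counts (11 of the 12 receptors, kinases and factors and 9 of the 29 induced genes), within the 11797 genes tested in all. The libraries came from KPCY cells stably transduced with a lentiviral vector inhibiting miR-27a-3p (the knockdown, 4 libraries) and from KPCY cells with a scrambled sequence in its place (4 libraries). Both carried a lentiviral vector and underwent 7 days of selection in 2 µg/mL puromycin, and the labels name no added interferon. RNA was taken 24 hours after seeding. Each group is 1 stable line, and its libraries are biological replicates by the labels, which name no separate transductions. The p-values therefore measure the spread between cultures of a line.

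Interferons signal through pairs of receptor subunits, Ifnar1 with Ifnar2 for type I interferon and Ifngr1 with Ifngr2 for interferon gamma. Janus kinases bound to the receptors phosphorylate STAT proteins. Complexes that hold Stat2 and Irf9 bind the interferon-stimulated response element (ISRE) in the promoters of induced genes, while STAT dimers bind the gamma-activated site (GAS). Most induced genes are antiviral effectors or sensors, and many are hardly transcribed until interferon arrives.

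Library totals were 19165513 to 21735023 counts in the knockdown and 20021056 to 23542275 in scrambled libraries. A count of 0 allows up to 3 counts, which is 0.137 to 0.155 CPM in the knockdown and 0.129 to 0.151 CPM in scrambled libraries, for counting error only. Scrambled replicate 2 stood apart, with a chi-square of 5.19 to 5.36 per gene against the other scrambled libraries, whose own pairs gave 1.80 to 2.35. Knockdown pairs gave 1.73 to 1.96. The precursor of miR-27a (Mir27a) had 1 count in knockdown replicate 2 and 0 elsewhere, so the depth of the knockdown cannot be read from these libraries, which hold no mature microRNAs. All 8 epithelial markers were detected. In a comparison that called 47.9% of all tested genes, 4 of these markers were called higher in the knockdown (Krt7, Krt18, Cdh1 and Muc1). Another 2 were called lower (Krt19 and Sox9) and 2 neither (Krt8 and Epcam). Krt8 was the highest, at 3188 CPM in the knockdown and 3254 CPM in scrambled libraries, and Epcam the lowest, at 5.62 and 7.15 CPM.

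Promoters of the members were searched for both elements. The ISRE core GAAANNGAAA, searched on both strands in the window from 250 bases before to 50 bases after the RefSeq start (GRCm38.p6), was in 13 of the 22 induced members with a promoter entry (59.1%) and in 1 of the 12 receptors, kinases and factors (8.33%). It was in 3.99% of all 27025 genes with an entry. The GAS core TTCNNNGAA, which reads the same on both strands, was in 6 of the 22 induced members (27.3%) and in 3 of the 12 others (25.0%), against 9.55% of all genes. By count, the ISRE was in 4 of 7 tested induced members, 3 of 6 low ones and 6 of 9 silent ones with an entry. For the GAS these counts were 4 of 7, 0 of 6 and 2 of 9. No test was made, since induced genes are known by such elements. The windows below show the ISRE core in capitals on the gene's own strand, first for 6 genes with almost no reads and then for 5 genes that were tested, so that both kinds can be compared. Several promoters hold overlapping cores, and each line marks 1 of them.
Isg15, chr4:156200871-156200900, minus strand: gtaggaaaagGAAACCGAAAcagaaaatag
Ifit1, chr19:34640794-34640823, plus strand: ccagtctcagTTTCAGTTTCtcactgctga
Oas1a, chr5:120907520-120907549, minus strand: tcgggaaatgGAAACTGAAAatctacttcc
Rsad2, chr12:26456553-26456582, minus strand: ctggtccaacTTTCATTTTCagaaaacaga
Gbp3, chr3:142559989-142560018, plus strand: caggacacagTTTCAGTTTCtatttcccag
Gbp7, chr3:142530273-142530302, plus strand: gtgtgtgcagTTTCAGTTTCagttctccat
Irgm1, chr11:48871425-48871454, minus strand: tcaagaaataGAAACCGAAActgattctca
Bst2, chr8:71537577-71537606, minus strand: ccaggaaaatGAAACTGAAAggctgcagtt
Stat2, chr10:128270266-128270295, plus strand: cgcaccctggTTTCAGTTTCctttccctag
Eif2ak2, chr17:78882535-78882564, minus strand: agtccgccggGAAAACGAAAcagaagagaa
Ifih1, chr2:62646206-62646233, minus strand: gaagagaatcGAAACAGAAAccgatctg

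Of the 20 tested members, 3 were higher in the knockdown (Irgm1, Oasl1 and Ifnar1), 3 were lower (Bst2, Ifi35 and Stat2) and 14 did not pass the test. That is 15% in each direction, against 23.8% of all 11797 tested genes higher, 24.1% lower and 47.9% in either direction. Their median log2 fold change was −0.03 and their median absolute log2 fold change 0.0985, against 0.133 over all tested genes. The largest fold was 1.40, for Irgm1. Groups did not overlap for 3 of the 20 (Irgm1, Oasl1 and Bst2), against 42.2% of all tested genes. The calls for Irgm1, Oasl1 and Bst2 were kept when any of the 8 libraries was left out. Those for Ifnar1, Ifi35 and Stat2 were not, and without scrambled replicate 2 the counts were 4 higher and 1 lower.

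**Figure D1:**
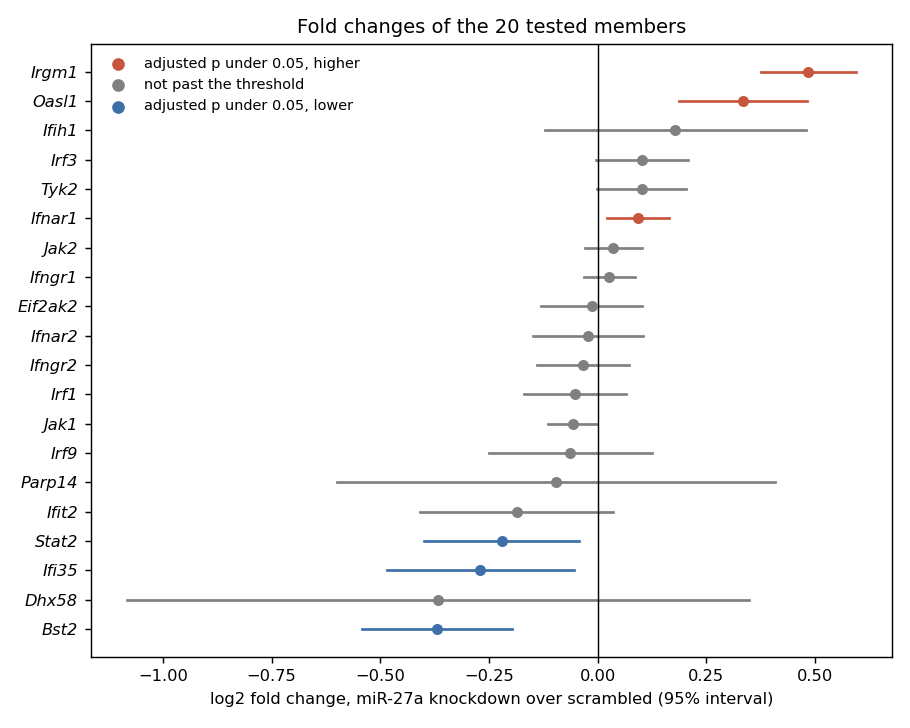
Log2 fold change of each tested member, knockdown over scrambled, with its 95% interval from edgeR on the horizontal axis and genes ordered by fold change from top to bottom. Irgm1 (0.48) and Oasl1 (0.33) lie highest and Bst2 (−0.37) lowest, and 14 of the 20 members are drawn in grey because they did not pass the adjusted p of 0.05.

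The receptors and Janus kinases were all well detected, and 1 of the 7 passed the test. Ifnar1, the signalling subunit of the type I interferon receptor (GRCm38 chromosome 16, 91485238 to 91507441), had 92.9, 88.2, 89.8 and 89.0 CPM in knockdown replicates 1 to 4, and 83.6, 81.7, 82.9 and 89.1 CPM in the scrambled ones. The groups overlapped, since scrambled replicate 4 was above 2 of the knockdown libraries. Ifnar1 rose 1.07-fold (log2 fold change 0.09, SE 0.0346, edgeR adjusted p = 0.0300). The call was lost without knockdown replicate 1 (adjusted p = 0.104) or 3 (0.0544), or without scrambled replicate 1 (0.0578) or 3 (0.0746), and DESeq2 gave 0.0557. In bulk RNA, a change in the number of cells with a transcript and a change per cell cannot be told apart.

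The other subunits lay close to their controls. Ifnar2, the high-affinity type I subunit, averaged 27.1 ± 2.31 against 27.5 ± 1.22 CPM (SD, n = 4 each, knockdown before scrambled here and below), and the 95% interval of its fold ran from 0.902 to 1.07. Ifnar2 shares 315 of its 3329 exon bases with Gm21970 on the same strand. Ifngr1, the ligand-binding gamma receptor chain, averaged 261.5 ± 8.0 against 256.7 ± 8.43 CPM, with a fold between 0.978 and 1.06. Ifngr2, its partner chain, averaged 54.5 ± 3.01 against 55.7 ± 4.31 CPM, with a fold between 0.907 and 1.05.

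Ifnar2, Il10rb, Ifnar1 and Ifngr2 lie side by side on chromosome 16, from 91372783 to 91565623. Il10rb, a subunit shared by the lambda interferon and interleukin-10 receptors (91406164 to 91425834), had 69.2, 67.0, 67.5 and 65.8 CPM in the knockdown and 54.8, 45.9, 54.4 and 55.5 CPM in scrambled libraries. The groups did not overlap, and it rose 1.28-fold (log2 fold change 0.35, adjusted p = 2.53e-06, at most 3.76e-05 without any 1 library). The tested genes of chromosome 16 had a median log2 fold change of −0.0666. Ifnlr1, the specific lambda receptor chain, averaged 13.7 against 13.8 CPM (adjusted p = 0.954).

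Among the kinases, Jak1, which serves both receptors, averaged 160.3 ± 2.44 against 167 ± 4.18 CPM and did not pass (adjusted p = 0.0894). Jak2, the partner of Ifngr2, averaged 141 ± 2.66 against 138 ± 6.30 CPM (adjusted p = 0.375). Tyk2, the partner of Ifnar1, averaged 38.9 ± 1.83 against 36.2 ± 1.70 CPM (adjusted p = 0.0958). These calls depended on scaling or on a library: Tyk2 passed with upper-quartile factors (adjusted p = 0.0489), Jak1 without scrambled replicate 1 (0.0365) and Jak2 without scrambled replicate 2 (0.0425). The fold intervals were 0.924 to 0.9996 for Jak1, 0.979 to 1.07 for Jak2 and 0.999 to 1.15 for Tyk2.

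Levels per kilobase use the exon bases of all annotated transcripts of a gene, so comparisons between genes depend on the annotation. On that measure Ifngr1 was the most abundant of these genes, at 91.9 ± 2.81 CPM per kilobase in the knockdown and 90.2 ± 2.96 in scrambled libraries. That placed it at the 96.0th percentile of tested genes in scrambled libraries. Jak2 (28.03 ± 0.529 against 27.4 ± 1.25) and Jak1 (22.2 ± 0.337 against 23.1 ± 0.578) came next. Ifnar1 (15.1 ± 0.343 against 14.2 ± 0.554) and Ifngr2 (14.5 ± 0.800 against 14.8 ± 1.14) did not differ in level beyond their spread. Ifnar2 (8.13 ± 0.693 against 8.27 ± 0.368) and Tyk2 (5.67 ± 0.267 against 5.28 ± 0.247) were the lowest of the 7.

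**Figure D2:**
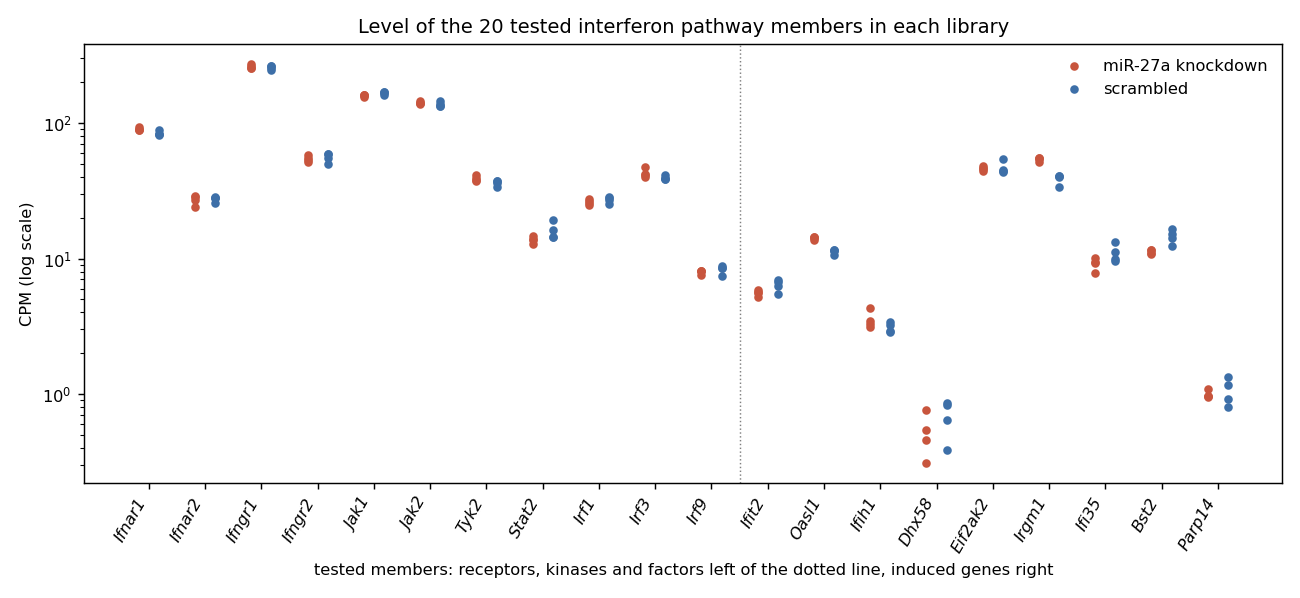
Level of each tested member in CPM on a log axis, 1 point per library, with the 4 knockdown libraries left of the 4 scrambled ones. Receptors, kinases and factors left of the dotted line lie mostly above 20 CPM, while the induced genes on the right run from under 1 CPM (Dhx58) to about 50 CPM (Irgm1, Eif2ak2).

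Of the transcription factors, Stat2 was called lower, and Irf7 was too low to test. Stat2, the STAT of type I signalling (chromosome 10, 128270559 to 128292849), had 13.97, 12.7, 13.7 and 14.7 CPM in the knockdown and 14.5, 19.3, 16.1 and 14.5 CPM in scrambled libraries. The groups overlapped, and scrambled replicate 2 was the highest library. Stat2 fell by 0.22 on the log2 scale (SE 0.0860, edgeR adjusted p = 0.0384). Without scrambled replicate 2 the log2 fold change was −0.12 (adjusted p = 0.181). The call was also lost without scrambled replicate 3 (0.0694) or without knockdown replicate 1 (0.0653), 2 (0.121) or 3 (0.0767). Other fits that lost it were the replicate number as a block (0.0526), upper-quartile factors (0.0585), limma-voom (0.0507) and DESeq2 (0.0667).

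Irf9, the DNA-binding partner of Stat2, averaged 7.96 ± 0.232 against 8.33 ± 0.600 CPM (adjusted p = 0.595, fold between 0.841 and 1.09). Irf1, a factor induced by interferon gamma, averaged 26.1 ± 1.30 against 27.1 ± 1.47 CPM (adjusted p = 0.474). Irf3, which is present before infection and switches on interferon genes after sensing of nucleic acids, averaged 42.5 ± 3.22 against 39.6 ± 1.27 CPM (adjusted p = 0.108). Irf7, the factor that amplifies type I interferon production, had 7, 4, 9 and 13 counts in the knockdown and 6, 3, 14 and 5 in scrambled libraries, so the groups overlapped at a level near the floor. Irf9 shares 123 exon bases with Rnf31 on the same strand, so part of its counts could belong to that neighbour. On the opposite strand, Irf1 shares 135 with Gm17334, Irf3 88 with Bcl2l12 and Irf7 45 with Phrf1. The same holds for these 3 if the counting ignored strand, which is not given.

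Most induced genes (20 of 29) had too few reads to test. Of the 29 induced members, 13 had at most 3 counts in every scrambled library and are called silent at rest: Isg15, Ifit1, Oas1a, Oas2, Mx1, Mx2, Rsad2, Cmpk2, Gbp3, Gbp7, Ifi44, Rtp4 and Sp100. All 13 also had at most 3 counts in every knockdown library, and together they summed to 1, 2, 7 and 3 counts in knockdown replicates 1 to 4 and to 3, 7, 7 and 3 counts in scrambled replicates 1 to 4. Oas1a, Oas2, Rsad2, Ifi44 and Sp100 had 0 counts in all 8 libraries. Over the whole table, 8403 of 24421 rows had 0 counts in all libraries. Of those 24421 rows 12624 were not tested, against 20 of the 29 induced members and 1 of the 12 receptors, kinases and factors. Few reads are thus common outside these genes too, and the difference in share was not tested. The share of all rows silent by the rule used here was not computed. Cmpk2 and Gbp7 had 0 in every scrambled library and 1 count in 1 knockdown library each. No difference between the lines was detectable for these genes at this depth.

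Several of these silent genes are known effectors of the response. Isg15 is a ubiquitin-like protein attached to other proteins. It had 1 count, in knockdown replicate 4, against 2, in scrambled replicate 1. Ifit1 binds viral RNA, and had 3 counts in all in the knockdown against 5 in scrambled libraries. Oas1a and Oas2 make the second messenger that activates RNase L. Rsad2 (viperin) and Cmpk2, neighbours on chromosome 12, act on nucleotides used by viral polymerases. Mx1 and Mx2 are dynamin-like GTPases. Mx1 had 0 counts in the knockdown against 4 in scrambled libraries, 3 of them in replicate 4, and Mx2 is annotated as a polymorphic pseudogene in this genome.

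A further 7 induced members had more than 3 counts in some scrambled library but did not pass the filter. Cxcl10, a chemokine for T cells, had 5, 8, 2 and 11 counts in the knockdown and 9, 6, 15 and 10 in scrambled libraries. Xaf1, a pro-apoptotic protein, had 6, 11, 10 and 9 counts in the knockdown and 10, 10, 7 and 9 in scrambled libraries. Ifit3, a partner of Ifit1, had 4, 8, 2 and 1 counts in the knockdown and 10, 4, 8 and 11 in scrambled libraries. All 3 genes overlapped between groups, and Cxcl10 shares 133 exon bases with Art3 on the opposite strand. Usp18, which removes Isg15 and blocks the type I receptor, Oasl2, Gbp2 and Ifi47 had at most 10 counts in any library.

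When low genes were not filtered out, none of the 16 untested members with any count was called by edgeR (0 also at an unadjusted p under 0.05), the smallest adjusted p being 0.136 for Ifit3. DESeq2 gave an adjusted p for 8 of them and called 0, with 0 at an unadjusted p under 0.05. The edgeR fit without the filter called 5842 of 16018 genes in all. The share called among all genes with as few reads was not computed, so these counts say little about the members.

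**Figure D3:**
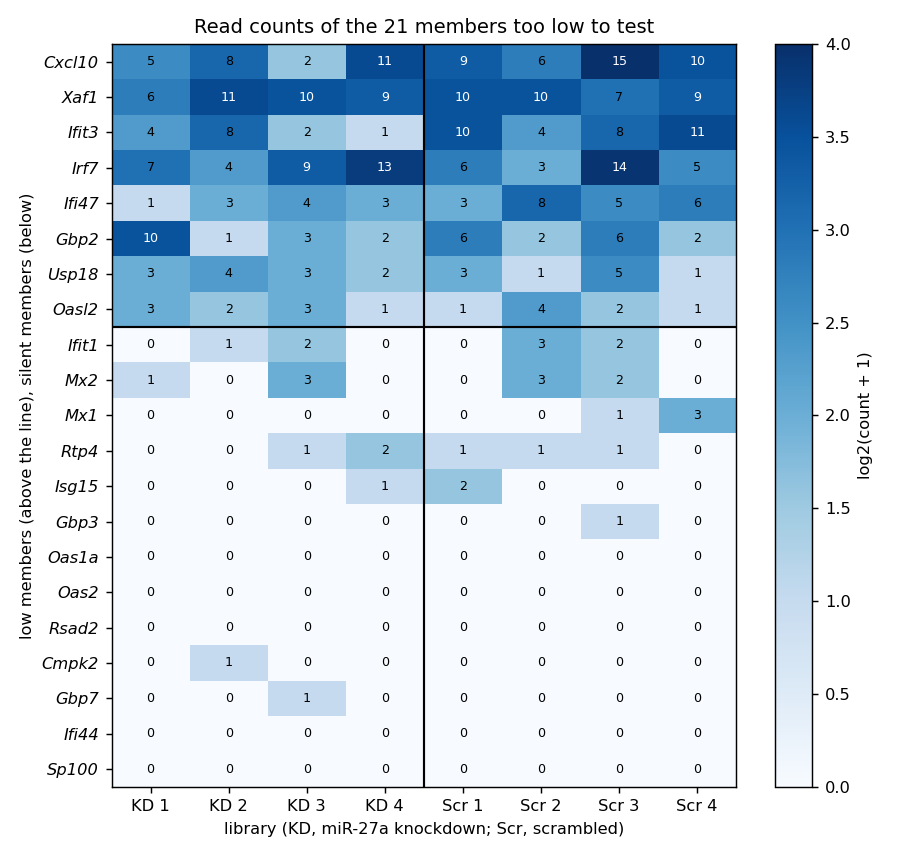
Read counts of the 21 members too low to test, with 1 row per gene and the 4 knockdown libraries left of the 4 scrambled ones. The 8 low members above the line reach at most 13 counts in a knockdown and 15 in a scrambled library, and the 13 silent ones below it at most 3 in any library.

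Of the 9 induced members with enough counts to test, 2 rose and 2 fell, which is 44.4% called against 47.9% of all tested genes. Irgm1, an interferon-induced GTPase of autophagy and defence against intracellular pathogens (chromosome 11, 48861968 to 48871683), had 55.5, 51.6, 53.9 and 55.3 CPM in the knockdown and 40.4, 33.4, 39.7 and 40.9 CPM in scrambled libraries. Every knockdown library was above every scrambled one. Irgm1 rose 1.40-fold (95% interval 1.30 to 1.51, log2 fold change 0.48, SE 0.0529, adjusted p = 1.02e-07). Scrambled replicate 2 was the lowest library, and without it the log2 fold change was 0.42 (adjusted p = 3.05e-12). The tested genes of chromosome 11 had a median log2 fold change of −0.0576.

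Other GTPases of its class did not show a comparable level. Ifi47 had 1, 3, 4 and 3 counts in the knockdown and 3, 8, 5 and 6 in scrambled libraries. Irgm2 averaged 1.62 against 1.37 CPM (adjusted p = 0.476), and Igtp had 33 counts in all in each group and was not tested. Irgm2 and Igtp overlap in the annotation, so their counts are uncertain. Per kilobase, Irgm1 stood at 9.30 ± 0.311 CPM in the knockdown and 6.64 ± 0.599 in scrambled libraries, Ifi47 at 0.0554 ± 0.0258 and 0.107 ± 0.0446.

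Oasl1, an OAS-like protein that restrains translation of Irf7 in mice (chromosome 5, 114923240 to 114937915), had 14.3, 13.7, 14.5 and 14.3 CPM in the knockdown and 11.6, 11.3, 11.6 and 10.6 CPM in scrambled libraries. The groups did not overlap, and it rose 1.26-fold (log2 fold change 0.33, SE 0.0710, adjusted p = 0.000477). Its neighbour and relative Oasl2 (114896936 to 114912234) had 1 to 3 counts in knockdown and 1 to 4 in scrambled libraries, and the catalytic relatives Oas1a and Oas2 had 0. The tested genes of chromosome 5 had a median log2 fold change of 0.137, and its part in the rise of Oasl1 was not tested.

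Bst2 (tetherin), which holds budding virus on the cell surface (chromosome 8, 71534255 to 71537456), had 11.005, 11.5, 10.9 and 11.6 CPM in the knockdown and 15.2, 12.4, 14.1 and 16.5 CPM in scrambled libraries. Every knockdown library was below every scrambled one, scrambled replicate 2 being the nearest. Bst2 fell by 0.37 on the log2 scale (SE 0.0831, adjusted p = 0.000852, and 7.01e-06 without scrambled replicate 2). The tested genes of chromosome 8 had a median log2 fold change of 0.208, and any bearing of this on the fall of Bst2 was not tested.

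Ifi35, a partner of Nmi in inflammatory signalling (chromosome 11, 101448407 to 101458698), had 9.42, 7.77, 10.0 and 9.26 CPM in the knockdown and 9.66, 13.3, 11.1 and 9.90 CPM in scrambled libraries. The groups overlapped, and scrambled replicate 2 was again the highest. Ifi35 fell by 0.27 on the log2 scale (SE 0.103, adjusted p = 0.0354), but without scrambled replicate 2 the log2 fold change was −0.17 (adjusted p = 0.137). The call was also lost without scrambled replicate 3 (0.0671) or without knockdown replicate 1 (0.0528), 2 (0.137) or 4 (0.0620), with the replicate number as a block (0.0506), with upper-quartile factors (0.0501) and with DESeq2 (0.0631). Ifi35 shares 290 of its 1727 exon bases with the antisense gene Gm11626.

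**Figure D4:**
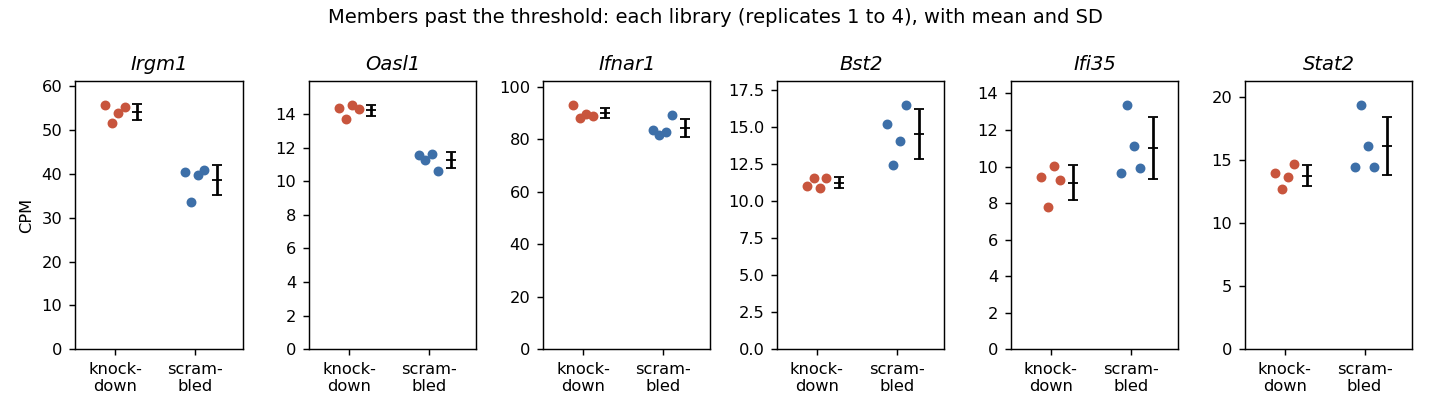
CPM of the 6 members past the threshold in each library, knockdown left of scrambled within each panel and replicates 1 to 4 from left to right, with the mean and SD beside the points on an axis that starts at 0. The groups are separate for Irgm1, Oasl1 and Bst2 and overlap for Ifnar1, Ifi35 and Stat2, where scrambled replicate 2 is the highest of the Ifi35 and Stat2 libraries (13.3 and 19.3 CPM).

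The remaining 5 tested induced members did not pass. Eif2ak2, the kinase PKR that senses double-stranded RNA and halts translation, had 46.7, 45.4, 44.5 and 48.0 CPM in the knockdown and 43.4, 53.8, 44.5 and 45.1 CPM in scrambled libraries (adjusted p = 0.857, fold between 0.914 and 1.07). Scrambled replicate 2 was the highest of all 8 libraries. Ifih1, the RNA sensor MDA5, averaged 3.53 ± 0.518 against 3.11 ± 0.254 CPM (adjusted p = 0.325), and Dhx58, the related helicase LGP2, 0.521 ± 0.191 against 0.678 ± 0.215 CPM (adjusted p = 0.400). Ifit2, an RNA-binding tetratricopeptide protein, averaged 5.57 ± 0.253 against 6.35 ± 0.642 CPM (adjusted p = 0.159), and the ADP-ribosyltransferase Parp14 0.997 ± 0.0608 against 1.06 ± 0.236 CPM (adjusted p = 0.771). For Dhx58 and Parp14 the fold intervals ran from 0.472 to 1.27 and from 0.660 to 1.33, so depth limits what could be seen.

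In the Ifit cluster of chromosome 19 (34550694 to 34650009), Ifit2 stood at 1.42 ± 0.0644 CPM per kilobase in the knockdown and 1.62 ± 0.164 in scrambled libraries. Ifit3 stood at 0.110 ± 0.0930 and 0.224 ± 0.0860, and Ifit1 at 0.0145 ± 0.0184 and 0.0223 ± 0.0276. Ifit3b, a close copy of Ifit3 in the same cluster, had 0, 0, 0 and 2 counts in the knockdown and 0, 6, 10 and 4 in scrambled libraries. Its reads cannot be told from those of Ifit3 with certainty.

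Summed over the 29 induced members, the level was 149, 142, 147 and 150.1 CPM in the knockdown and 133, 138, 135 and 136 CPM in scrambled libraries. Irgm1 made the difference between these sums, since without it they were 90.8 to 94.8 CPM in the knockdown and 92.3 to 104 CPM in scrambled libraries and overlapped. Immune cell markers other than Cd14 and Cd68 were near 0 in both groups: of the 14, 6 had 0 counts in all libraries, among them Adgre1, Lyz2 and Cd8a, and 4 exceeded 3 counts in any library. Their summed level was 62.0 to 71.8 CPM in the knockdown and 75.3 to 84.4 CPM in scrambled libraries, nearly all of it Cd14 (63.8 against 76.6 CPM), which fell by 0.26 on the log2 scale and is also made by epithelial cells. Fibroblast markers summed to 0.777 to 1.43 CPM in the knockdown and 0.943 to 1.41 CPM in scrambled libraries, and endothelial markers to 0.182 to 0.717 and 0.534 to 1.16 CPM. Their part in the results was not tested.

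None of the 12 interferon genes looked up had a read in either line. Ifnb1, Ifng, Ifne, Ifnk, Ifnl2, Ifnl3 and the 6 listed Ifna genes had 0 counts in all 8 libraries. The cytokine Il18, listed beside them, had 1.79, 1.502, 2.14 and 2.10 CPM in the knockdown and 0.340, 1.21, 0.943 and 1.21 CPM in scrambled libraries, without overlap. It rose 2.04-fold (adjusted p = 0.00285, at most 0.0130 without any 1 library).

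The other STATs, IRFs and receptor chains of the list had 2 rises and 2 falls among 10 tested (40% called, against 47.9% of all tested genes). Their median log2 fold change was −0.0137, against 0.00170 over all tested genes. Stat5a, a STAT of cytokine and prolactin receptors, averaged 8.85 ± 0.518 against 11.1 ± 0.484 CPM and fell by 0.32 on the log2 scale (adjusted p = 0.00251). Irf8, a factor better known from myeloid cells, stood at 0.502 ± 0.135 against 0.896 ± 0.161 CPM (adjusted p = 0.0244), a call that held in 3 of the 8 fits that leave out a library. Stat3 (69.5 against 69.0 CPM), Stat6 (94.6 against 96.0 CPM) and Irf2 (33.8 against 35.5 CPM), which opposes Irf1, did not pass.

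Brakes on the pathway moved in both directions. Of 18 tested, 9 rose, 4 fell and 5 did neither (72.2% called, against 47.9% of all tested genes), with a median log2 fold change of 0.123. The list was chosen with earlier results of these data known, so its share describes the listed genes only and was not tested. Socs2, a suppressor of cytokine signalling best known for growth hormone, averaged 28.6 ± 1.09 against 16.0 ± 2.01 CPM and rose 1.79-fold (adjusted p = 2.27e-09). Cish, its relative, averaged 4.27 ± 0.440 against 2.33 ± 0.388 CPM and rose 1.82-fold (adjusted p = 5.79e-05). Socs1 (4.76 against 5.48 CPM, adjusted p = 0.175) and Socs3 (41.2 against 41.2 CPM, adjusted p = 0.994), the family members known to bind Janus kinases, did not pass.

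The phosphatases moved both ways. Ptpn6 (SHP-1) averaged 17.5 ± 0.674 against 29.8 ± 2.71 CPM and fell by 0.77 on the log2 scale (adjusted p = 2.32e-09). Ptpn2, which dephosphorylates STATs and Janus kinases, averaged 46.4 ± 2.03 against 55.3 ± 1.16 CPM and fell by 0.26 on the log2 scale (adjusted p = 2.56e-05). Ptpn11 (SHP-2) averaged 247 ± 2.07 against 208 ± 5.61 CPM and rose 1.19-fold (adjusted p = 3.11e-08). Ptpn1, another phosphatase of Janus kinases, averaged 55.2 ± 1.29 against 47.8 ± 0.886 CPM and rose 1.16-fold (adjusted p = 1.30e-04). Groups were separate for Socs2, Cish and all 4 phosphatases, and the 6 calls held without any 1 library. Sh2b3, an adaptor that restrains Jak2, rose 1.26-fold, and Irf2bp2, a corepressor partner of Irf2, 1.16-fold.

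Nucleic acid sensors and adaptors had 5 rises and 5 falls among 22 tested (45.5% called, against 47.9% of all tested genes). Their median log2 fold change was 0.0765. Ikbke, a kinase that activates Irf3, averaged 23.3 ± 1.78 against 18.7 ± 0.736 CPM and rose 1.25-fold (adjusted p = 0.000246). Traf3 and Adar, the RNA editing enzyme, rose 1.12-fold and 1.11-fold. Tlr4, the receptor of bacterial lipopolysaccharide, averaged 26.2 ± 1.14 against 32.7 ± 2.18 CPM and fell by 0.32 on the log2 scale (adjusted p = 5.92e-05). The RNase H2 subunits Rnaseh2a and Rnaseh2b were called in opposite directions, with log2 fold changes of 0.22 and −0.35.

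A wider list of interferon-induced genes had 69 of its 73 genes in the table and 37 tested. Of these, 6 were higher, 6 lower and 25 neither (32.4% called, against 47.9% of all tested genes). The median log2 fold change was −0.00493, and 11 genes of the list were at 0 in all libraries. Slfn9, a Schlafen family member, averaged 24.6 ± 1.76 against 44.8 ± 1.29 CPM and fell by 0.86 on the log2 scale (adjusted p = 7.03e-12). Ifitm2, a membrane protein that blocks viral entry, averaged 111 ± 4.28 against 132 ± 3.61 CPM and fell by 0.25 on the log2 scale (adjusted p = 1.12e-06), and Pml, the scaffold of nuclear bodies, by 0.17. Cd274 (PD-L1), a ligand that restrains T cells, averaged 3.08 ± 0.174 against 2.11 ± 0.297 CPM and rose 1.46-fold (adjusted p = 0.00680). Ifi204, a DNA sensor, rose 1.33-fold and Samd9l, an antiviral protein, 1.18-fold.

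Among genes of that list too low for the test, Ifitm3 had 0, 0, 3 and 0 counts in the knockdown and 11, 7, 6 and 3 in scrambled libraries. With low genes kept in, edgeR gave it an adjusted p of 0.00181. Phf11d had 1, 3, 2 and 4 counts in the knockdown and 0 in every scrambled library (adjusted p = 0.00985 with low genes kept in). Ifit3b (0.00703) and Mndal (0.0398) were also called there, both lower in the knockdown. These 4 were the only ones called among the 25 untested genes of all lists outside the members with any count. That fit called 5842 of 16018 genes in all.

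**Figure D5:**
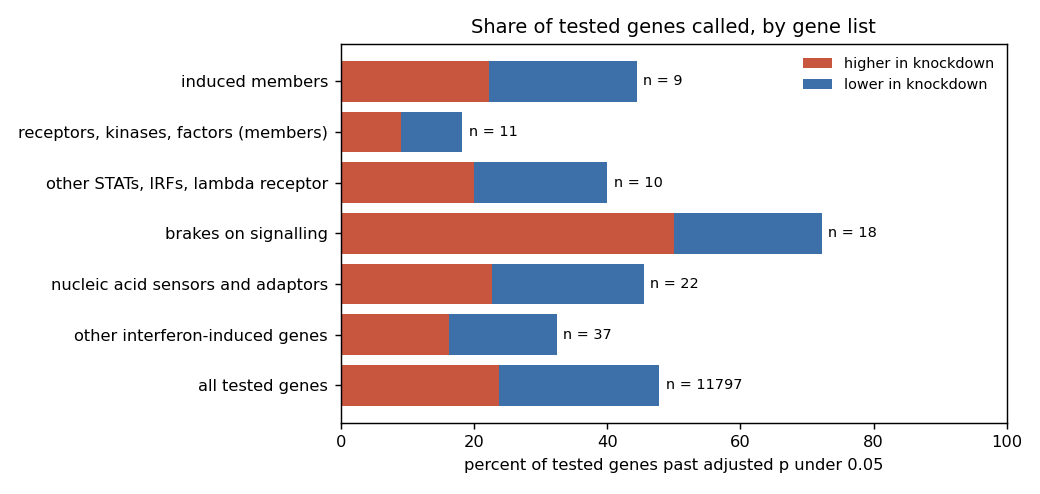
Percent of tested genes past the adjusted p of 0.05 in each list, stacked as higher and lower in the knockdown, with the number tested beside each bar and all 11797 tested genes in the bottom bar (the ligands, with 2 tested, are not drawn). The brakes have the longest bar (72.2%), and the member receptors, kinases and factors the shortest (18.2%), against 47.9% of all tested genes. All lists were chosen with earlier results of these data known, and no difference between bars was tested.

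As the knockdown line carries an inhibitor of miR-27a-3p, the 3′ UTRs of the members were searched for its seed match. The mature sequence from RefSeq (GRCm38.p6) is shown with its seed, bases 2 to 8, in capitals, followed by the matches in the longest annotated 3′ UTR of the 4 tested members that have one and the 2 members with an 8mer, each with the match in capitals.
miR-27a-3p, chr8:84208727-84208747, plus strand: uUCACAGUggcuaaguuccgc
Ifnar1: atctctcaacaACTGTGAcacaggtcttc
Jak2: aggcagaagaaACTGTGAcgccgtctgct
Irf9: gaggcaagaagACTGTGAgttcaaattca
Ifih1: aagctcctgtcACTGTGActaccacacag
Rsad2: gtgtggattttACTGTGAAtcccacatttc
Gbp7: ggctcaggaacACTGTGAAagaggaaacag

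A match of at least 7 bases (ACTGTGA) was in 9 of the 41 members (22.0%), against 16.7% of all genes with a 3′ UTR, and in 4 of the 20 tested members (20%), against 19.3% of tested genes. An 8mer (ACTGTGAA) was in 2 of the 41 members (4.88%), both silent, against 6.20% of all genes with a 3′ UTR. Of the 4 tested members with a match, Ifnar1 rose 1.07-fold, and the log2 fold changes of Jak2 (0.04), Irf9 (−0.06) and Ifih1 (0.18) did not pass the test. Irgm1, Oasl1, Bst2, Ifi35 and Stat2 had no such match in the UTR searched. A match is a description of the sequence and not evidence of a site in use.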

How the data were processed

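RNA of 8 libraries was prepared with a stranded mRNA kit and read as paired ends of 59 bases, per the labels' protocols. The authors deposited raw counts per gene symbol. Build mm10 and the tools STAR, Bowtie, bcl2fastq 2.20, R 4.2.1 and DESeq2 1.36.0 are named, without roles, per the submitters' processing notes. Which tool counted reads, on which annotation and strand, is not given in the sources used here, so reads of overlapping genes cannot be told apart. Of the members, 19 share exon bases with another gene (a protein-coding one for 8).

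Counts were fitted in R 4.3.3 with edgeR 4.0.16 (filterByExpr with minimum count 10 and total 15, TMM, quasi-likelihood test on group, Benjamini-Hochberg adjustment over all genes tested, threshold 0.05). Levels are TMM-scaled CPM, SE is the log2 fold change over the root of F, and intervals are 95%. The fit was tested on simulated counts. DESeq2 1.42.0, limma 3.58.1 (voom) and other settings were alternatives. Coordinates, exon lengths and 3′ UTRs are from GENCODE M21 (GRCm38, the same assembly as mm10), and promoters and miRNAs from RefSeq, with an entry for 34 of the 41 members.

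The members and gene lists were chosen with earlier results of these data known. All members are accounted for, and from each other list called genes with the smallest adjusted p were taken, up to 4 in each direction. Cish, Ptpn1, Socs1, Socs3, Stat3, Stat6, Irf2, Ifnlr1, Irgm2, Igtp and the low genes outside the members were named after their values were seen. Some genes that this selection takes are left out of the text and not reported here.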

Additional observations from a re-analysis of the deposited data

Results flagged for a closer look

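Of 40 sets of 4 libraries (20 tested members in 2 groups), 5 had a library set apart from the other 3, where chance gives about 1 in 20. The rule sets the gap against the range of the 4 libraries and not against counting error. Eif2ak2 in scrambled replicate 2 was at 53.8 CPM, against 43.4 to 45.1 CPM in the other scrambled libraries. Irgm1 in scrambled replicate 2 was at 33.4 CPM, against 39.7 to 40.9 CPM. Ifnar2 in scrambled replicate 3 was at 25.7 CPM, against 27.9 to 28.4 CPM. Irf9 in knockdown replicate 4 was at 7.61 CPM, against 8.07 to 8.09 CPM in the other knockdown libraries. Its raw counts in knockdown replicates 1 to 4 were 158, 156, 158 and 167. Parp14 in knockdown replicate 2 was at 1.09 CPM, against 0.957 to 0.973 CPM, from raw counts of 19, 21, 19 and 21 in replicates 1 to 4. Scrambled replicate 2 was the highest or the lowest scrambled library for 15 of the 20 tested members, against 6 to 10 for the other 3.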

How the results depend on the processing

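No call of a member changed sign under any alternative. Members called higher numbered 3 (2 to 4 when 1 library was left out, 1 in a test against a fold of 1.2). Members called lower numbered 3 (1 to 4 when 1 library was left out). They were 1 with upper-quartile factors, 1 with DESeq2, 1 at an adjusted p under 0.01, and 0 against a fold of 1.2 with edgeR (1, Bst2, at an unadjusted p under 0.05 there). With the replicate number as a block 3 were higher and 1 lower, and 5533 genes were called in all. However, the libraries share only a number (correlations of same-numbered libraries −0.0350 to 0.0201). Of the knockdown libraries, only replicate 2 correlated best with the scrambled library of its own number. Genes called in all numbered 5645 (5116 to 6004 without 1 library, 1107 against a fold of 1.2). Silent induced members numbered 13 (13 to 14 without 1 scrambled library, 18 at up to 10 counts and 7 at exactly 0). The calls of Irgm1, Oasl1 and Bst2 held in all 17 alternatives but the test against a fold of 1.2, where Irgm1 alone passed. Depth limits the members under about 1 CPM. The cause of these changes was not tested.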
